A study of Rattus norvegicus with 6 samples.

Results

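miR-21 (rno-miR-21-5p and rno-miR-21-3p on the array) is a microRNA (miRNA) that is cut from a single precursor hairpin, which yields a 5p arm and a 3p arm. Both arms were taken by name from the Agilent Rat miRNA array, and together they are 2 of 758 miRNAs and 6 of 1806 probes on it. The rule is by name and uses no measured value, but it was set with earlier results of these data known. The samples were hearts of male Sprague–Dawley rats, an outbred stock. In the model group (n = 3 arrays), the left anterior descending coronary artery (LAD) was tied off to cause a myocardial infarction. In the control group (n = 3 arrays), the thread was passed without being tied. Myocardium was taken 4 weeks after surgery in both groups, total RNA of 1 rat was put on each array, and the rats used were drawn at random from larger groups. The labels place the model tissue in the marginal zone of the infarct and call the control tissue only myocardium, so that infarction and the place of sampling cannot be told apart. The age of the rats is not given in the sources used here.

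A miRNA guides the silencing complex to messenger RNAs that pair with its seed, bases 2 to 8 from its 5′ end. miR-21-5p is the guide arm of its precursor and miR-21-3p is the passenger arm, which is mostly degraded. In heart injury miR-21-5p is known as a miRNA of stressed cardiac fibroblasts, where it represses Sprouty1, a brake on ERK signalling, and it is studied for its part in fibrosis.

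The sequences of both arms are shown because the seed defines what the miRNA can pair with, and the hairpin is shown because it places the 2 arms that were measured separately. They come from RefSeq on build GRCr8, with the seed of each arm in capitals and, in the hairpin, both arms in capitals.
miR-21-5p: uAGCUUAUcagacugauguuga
miR-21-3p: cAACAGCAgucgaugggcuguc
mir-21 hairpin: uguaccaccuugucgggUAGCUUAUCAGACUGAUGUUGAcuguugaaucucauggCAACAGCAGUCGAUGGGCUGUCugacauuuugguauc
The hairpin of 92 bases lies at chr10:71902600-71902691 on the minus strand, miR-21-5p at chr10:71902653-71902674 and miR-21-3p at chr10:71902615-71902636. The miR-21 gene, which encodes no protein, stands between Tubd1 and Vmp1 in the gene order of the RefSeq annotation.

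A mature sequence was found for 685 of the 758 array miRNAs, and miR-21-5p was the only one of them with its seed. The seed of 3 others, miR-154-5p, miR-208b-5p and miR-208a-5p, differed from it at 1 position. The first 2 of these were detected on no array. miR-208a-5p, the passenger arm of a miRNA encoded in the cardiac alpha-myosin heavy chain gene, had signals of 18.3, 24.4 and 19.7 for control 1 to 3 and 15.2, 9.36 and 15.6 for model 1 to 3. It fell by 0.91 on the log2 scale (standard error 0.24, adjusted p = 0.0441 in limma) against a rise of miR-21-5p, but the call did not hold without scaling or without control 1, control 2, control 3 or model 1. The longest stretch of miR-21-5p found in another of the 685 was 9 bases, in miR-541-5p, which was detected on no array. Of the 6 miRNAs with the longest shared stretches, 4 were detected on no array. Of the other two, miR-361-5p had signals of 36.0 to 52.5 on control arrays and 42.8 to 49.4 on model arrays (log2 fold change -0.12, adjusted p = 0.300 in limma). miR-5132-3p was detected on 5 arrays, all but model 1, and did not pass either (log2 fold change -0.59, adjusted p = 0.122 in limma). None of the others among the 685 held the last 8 bases of miR-21-5p.

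Signals are background-subtracted fluorescence in arbitrary units, and a miRNA counted as detected on an array where the signal of at least 1 of its probes exceeded 3 times its error. Between 206 and 222 miRNAs were detected per array, 198 of them on all 6 arrays, and no spot was saturated. Pairs of control arrays correlated across miRNAs at 0.991 to 0.995 and pairs of model arrays at 0.989 to 0.993, and no pair held identical values. All arrays were on 1 slide, with the control arrays and model 1 in 1 row and model 2 and model 3 in the other. The tissue label fitted the muscle miRNAs miR-133b-3p and miR-1-3p, which had the highest and second highest signal in both groups. Other cardiomyocyte miRNAs were dimmer. miR-499-5p read 59.4 to 133 on control and 51.8 to 77.6 on model arrays. miR-208a-3p read 3.07 to 7.23 on control arrays and 3.14 and 3.37 on model 1 and model 3, and was not detected on model 2. miR-208b-3p, encoded in the beta-myosin heavy chain gene, was detected on no array.

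miR-21-5p was higher in the model group on every array. Its signal, summed over its probes, was 289, 384 and 243 for control 1 to 3 and 743, 983 and 603 for model 1 to 3. The lowest model array thus lay above the highest control array, and the group means were 305 ± 71.5 and 776 ± 192 (SD, n = 3). These values are not scaled, and the total signal of the arrays also differed.

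To compare arrays, each was divided by its own 75th percentile, taken over the 198 miRNAs that all 6 detected. The log2 scaled signal of miR-21-5p was 1.00, 1.02 and 0.74 for control 1 to 3 and 1.87, 2.35 and 1.84 for model 1 to 3. The groups did not overlap, control 3 was the lowest array and model 2 the highest, and the means were 0.92 ± 0.15 and 2.02 ± 0.29 (SD, n = 3). The log2 fold change was 1.10 (standard error 0.17, 95% confidence interval 0.69 to 1.51, adjusted p = 0.0104 in limma with Benjamini-Hochberg adjustment), a rise of 2.15-fold with an interval of 1.61-fold to 2.86-fold. This is not independent evidence, since the study lists miR-21-5p among the miRNAs it found changed on these same arrays. The exact permutation test on the 6 values gave p = 0.10, two-sided, which is the smallest that 3 arrays against 3 allow.

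A miRNA was tested if all 3 arrays of either group detected it. Of these 214 miRNAs, 22 (10.3%) passed an adjusted p of 0.05 in limma as higher in the model group and 27 (12.6%) as lower. The fold change of miR-21-5p was the ninth of the 214 from the top, and the seventh among those detected on all arrays. Its position was 20 with the authors' normalized values, 14 with the deposited totals or a lower floor and 5 with normexp background correction. The median log2 fold change of the latter was -0.15, and miR-21-5p stood 1.25 above it. The call was lost in the fit with slide row as a block, which sets model 1 against the control arrays beside it (log2 fold change 0.95, adjusted p = 0.0646 in limma). It was also lost when all 758 miRNAs were tested (log2 fold change 1.10, adjusted p = 0.127), of which 530 were at the floor on every array.

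**Figure D1:**
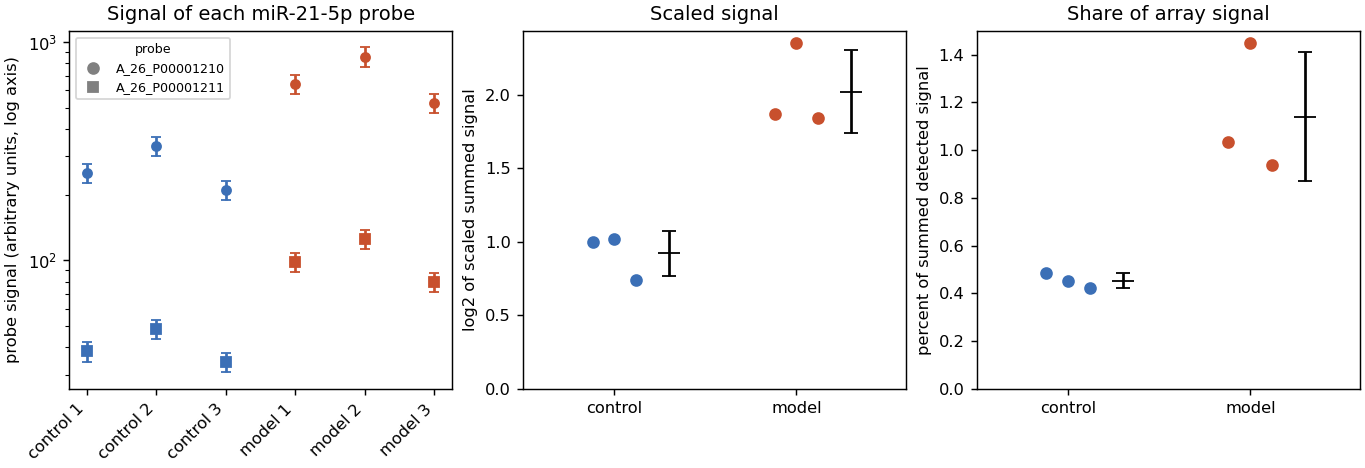
miR-21-5p on the 6 arrays (control in blue, model in red). The left panel gives the signal of each of its probes in arbitrary units on a log axis with the error of the scanner software as bars, the middle panel the log2 scaled signal and the right panel the percent of the summed signal of all detected miRNAs, each dot an array and the black bar the mean ± SD (n = 3). Every model array lies above every control array in each panel.

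**Figure D2:**
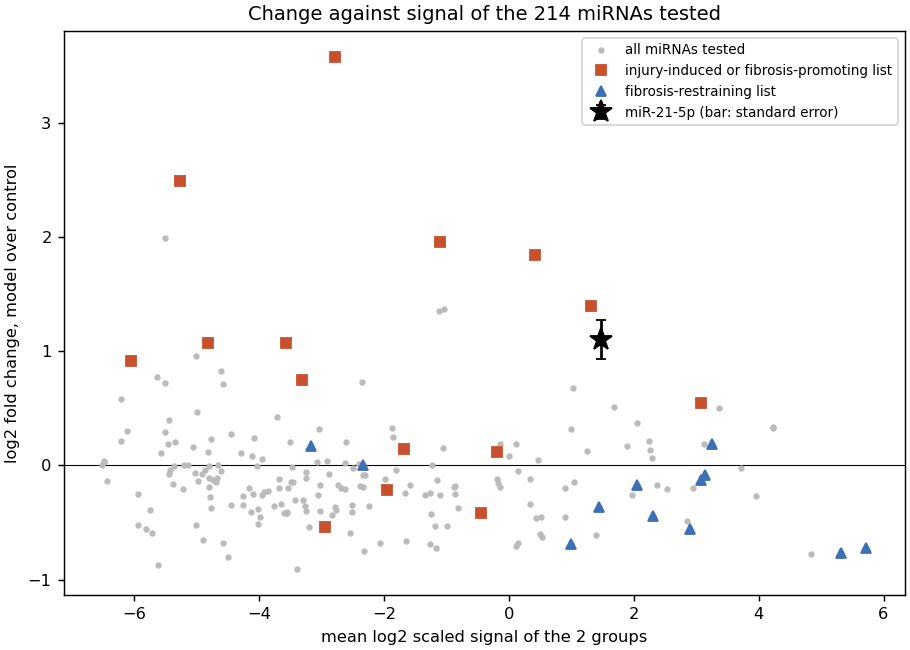
Log2 fold change, model over control, of the 214 miRNAs tested against their mean log2 scaled signal, with miR-21-5p as a star (bar: standard error) and the members of the injury and the fibrosis-restraining lists in colour. miR-21-5p lies at a log2 fold change of 1.10, the ninth from the top, among the miRNAs of higher signal.

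The probes of miR-21-5p gave the same picture. Each was printed as 8 spots per array, and all 48 of its spots were well above background. Probe A_26_P00001210 read 209 to 857 and probe A_26_P00001211 read 34.2 to 126, on every array at least 9.68 times its error. Taken alone, they gave log2 fold changes of 1.11 (adjusted p = 0.0114 in limma) and 1.07 (adjusted p = 0.00580 in limma). The ratio of the first to the second was 6.55, 6.91 and 6.11 for control 1 to 3 and 6.57, 6.82 and 6.59 for model 1 to 3, which overlapped (exact permutation p = 0.70, two-sided). Spots of 1 probe on 1 array varied by 2.27% to 6.17% (coefficient of variation).

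miR-21-3p, the passenger arm, was at the limit of detection. It has 4 probes of 4 spots each, and it was detected only on model 2, by probe A_26_P00002013 alone, with a signal of 2.08 that was 4.23 times its error. Of its 96 spots over all arrays, 2 were well above background. Summed over all 4 probes, detected or not, the signal was 0.631, 0.0263 and 0.0701 for control 1 to 3 and 1.67, 2.74 and 0.234 for model 1 to 3. The groups overlapped (exact permutation p = 0.20, two-sided, smallest possible 0.10), and since no group had the arm detected throughout, it was not tested across miRNAs and no fold change is given. A difference in miR-21-3p was not measurable on these arrays. The total deposited for it on model 2 was 28.0, of which 26.0 was not from its own probes but equalled the signal of miR-20b-5p on that array.

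miR-21-5p also took a larger part of the array signal, a measure that needs no scaling between arrays. Its share of the summed signal of all detected miRNAs was 0.485%, 0.453% and 0.421% for control 1 to 3 and 1.03%, 1.45% and 0.938% for model 1 to 3. The means were 0.453% ± 0.0320 and 1.14% ± 0.270 (SD, n = 3), a difference of 0.686 percentage points without overlap (exact permutation p = 0.10, two-sided, the smallest possible). This was the sixth largest gain of share on the array, after let-7b-5p with 1.86, let-7c-5p with 1.82, miR-23b-3p with 1.32, miR-125b-5p with 1.16 and miR-199a-3p with 0.763 points. The largest losses were those of miR-133b-3p, which dropped by 4.80 points, and miR-1-3p, which dropped by 4.02 points. Since these brightest miRNAs weigh on every share, the share was taken again without the 10 brightest other miRNAs, and it was then 1.12% ± 0.0515 for control and 2.46% ± 0.460 for model arrays.

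By signal, miR-21-5p stood at rank 35, 34 and 38 for control 1 to 3 and 26, 20 and 28 for model 1 to 3. Such a rank is one of array signal and depends on how well and by how many probes each miRNA is bound, so that it is no order of molecule numbers. In mean scaled signal it moved from position 35 to position 24. Above it in the control group stood miR-133a-3p, miR-130a-3p, miR-30d-5p, miR-1224 and miR-26b-5p, and below it miR-378b, let-7e-5p, miR-150-5p, miR-322-5p and miR-497-5p. The control ranges of miR-1224, miR-26b-5p and all 5 below it overlapped that of miR-21-5p, so their order on the control arrays lay within the spread. Those of miR-133a-3p, miR-130a-3p and miR-30d-5p lay above it.

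By the mean of the model group miR-21-5p stood above 11 miRNAs that had been ahead of it. These were miR-29b-3p, let-7g-5p, miR-99a-5p, miR-30e-5p, miR-29c-3p, miR-195-5p, miR-133a-3p, miR-130a-3p, miR-30d-5p, miR-1224 and miR-26b-5p. Of these, miR-30e-5p fell by 0.61 (adjusted p = 0.0441 in limma) and miR-133a-3p fell by 0.68 (adjusted p = 0.0297 in limma) on the log2 scale, and the other 9 did not pass the test in either direction. Neither call held without scaling or without control 1, control 2, control 3 or model 1, nor that of miR-30e-5p without model 2. The model ranges of 4 of the 11 overlapped that of miR-21-5p, those of miR-29b-3p, let-7g-5p, miR-99a-5p and miR-195-5p, so that their order lay within the spread. miR-29b-3p and miR-99a-5p were still above it on 2 of the 3 model arrays. Among the 23 miRNAs still ahead, 7 had a model range that overlapped that of miR-21-5p, namely miR-30c-5p, miR-27a-3p, miR-16-5p, let-7i-5p, miR-143-3p, miR-27b-3p and miR-30a-5p.

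The ratio of miR-21-5p to other miRNAs within an array was then taken for 8 references, 1 for each of 6 cell types of the heart and 2 that most cells express. In a bulk tissue, a change in the number of cells of a type and a change in RNA per cell cannot be told apart. Against miR-1-3p, a cardiomyocyte miRNA, the ratio was 0.0417, 0.0327 and 0.0347 for control 1 to 3 and 0.116, 0.192 and 0.103 for model 1 to 3. That was 3.64-fold higher in the model group, without overlap. miR-1-3p itself fell by 0.76 on the log2 scale (adjusted p = 0.0203 in limma), a call that held in 8 of 21 alternatives. The ratio was 3.09-fold higher against miR-451-5p of red cells and 3.01-fold higher against miR-126a-3p of endothelium. It was 2.41-fold higher against miR-145-5p of smooth muscle and 2.26-fold higher against miR-142-3p of leukocytes. Against the widely expressed miR-16-5p and let-7a-5p, whose own log2 fold changes were 0.07 and -0.02, it was 2.04-fold and 2.18-fold higher. All 7 of these ratios were higher without overlap between the groups, as were those to 179 of all 197 other miRNAs detected on every array. Their order depended on the processing. With the authors' normalized values the log2 ratio to miR-1-3p rose by 1.12 in place of 1.87. The rise was then larger against miR-451-5p (1.61), miR-126a-3p (1.41) and miR-145-5p (1.20). It was smaller against miR-16-5p (0.99), let-7a-5p (0.98) and miR-142-3p (0.95).

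The ratio to miR-199a-3p, a miRNA of fibroblasts, went the other way. It was 1.18, 1.26 and 1.27 for control 1 to 3 and 1.03, 1.01 and 0.977 for model 1 to 3, a ratio 0.814 times that of the control group and lower on every model array. For all 8 ratios the exact permutation p was 0.10, and 0.10 after Benjamini-Hochberg adjustment over the 8, the smallest the design allows. Against all 197 other miRNAs detected on every array, the ratio was higher without overlap for 179. Its mean was lower for 6, which were miR-31a-5p, miR-199a-5p, miR-214-3p, miR-199a-3p and the 2 arms of miR-140. The background for levels rather than ratios was that 16.4% of the 214 miRNAs tested had every model array above every control array.

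**Figure D3:**
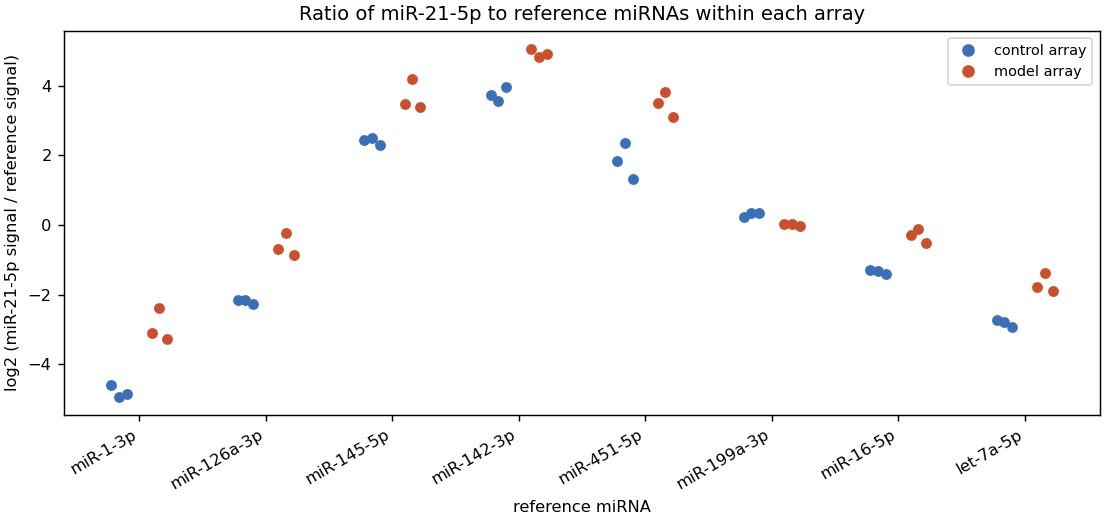
Log2 ratio of the signal of miR-21-5p to that of 8 reference miRNAs within each array, each dot an array (control in blue, model in red). The model arrays lie above the control arrays for 7 references and below them for miR-199a-3p.

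The miRNAs whose scaled signal followed miR-21-5p most closely over the 6 arrays were miR-199a-3p (r = 0.997), miR-140-5p (r = 0.992), miR-497-5p (r = 0.987), miR-199a-5p (r = 0.985) and miR-221-3p (r = 0.985). These are Pearson correlations over n = 6 arrays, which share the slide and the scaling, and they mostly carry the difference between the groups. Their sequences, from RefSeq on build GRCr8 with the seed in capitals, are shown to compare the seeds.
miR-199a-3p: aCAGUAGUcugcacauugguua
miR-140-5p: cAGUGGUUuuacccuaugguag
miR-497-5p: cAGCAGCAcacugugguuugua
miR-199a-5p: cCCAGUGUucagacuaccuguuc
miR-221-3p: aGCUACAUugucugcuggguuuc
The RefSeq table places them at chr13:77116294-77116315, chr19:52375314-52375335, chr10:55450172-55450193, chr13:77116255-77116277 and chrX:6023246-6023268, all on the plus strand. None has the seed of miR-21-5p, and they match it at 2 or 3 of the seed positions.

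Of these 5 miRNAs, miR-199a-5p had log2 scaled signals of -1.89, -2.07 and -2.27 for control 1 to 3 and -0.31, 0.16 and -0.23 for model 1 to 3. miR-140-5p had -1.68, -1.54 and -1.94 for control 1 to 3 and -0.46, -0.12 and -0.48 for model 1 to 3. Both rose, miR-199a-5p by 1.95 on the log2 scale (adjusted p = 0.00147 in limma) and miR-140-5p by 1.37 (adjusted p = 0.00348 in limma). All 5 were highest on model 2, as miR-21-5p was. After the group means were subtracted, which leaves the spread within groups, the closest were miR-195-5p (r = 0.992), miR-15a-5p (r = 0.986), miR-497-5p (r = 0.980), miR-532-5p (r = 0.979) and miR-199a-3p (r = 0.977). miR-497-5p and miR-199a-3p were among the closest by both measures. Between the groups, miR-195-5p (log2 fold change 0.51, adjusted p = 0.0626), miR-15a-5p (0.11, adjusted p = 0.693) and miR-532-5p (-0.01, adjusted p = 0.985) did not pass in limma.

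**Figure D4:**
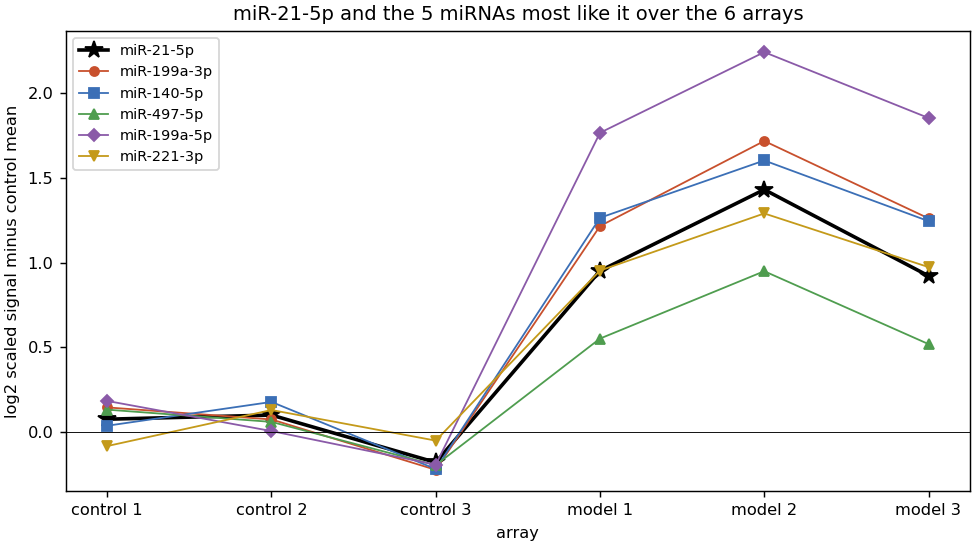
Log2 scaled signal minus the mean of the control arrays for miR-21-5p (star) and the 5 miRNAs with the highest correlation with it over the 6 arrays; lines join values of 1 miRNA and stand for no order. All 6 miRNAs are higher on the 3 model arrays than on the 3 control arrays, with model 2 the highest.

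miR-21-5p was set beside a list of 18 miRNAs known to be induced by cardiac injury or to promote fibrosis, of which it is a member. Several of the others are also in the study's own list of changed miRNAs from these arrays, so the count is no independent evidence of a direction. Of the 18, 16 were tested. In limma 11 were higher in the model group and 1 was lower, beside 10.3% and 12.6% of all 214, and 4 did not pass. In 11 of the 16, every model array lay above every control array, beside 16.4% of all 214. Both counts of 11 include miR-222-3p and miR-132-3p, which no control array detected and which were tested only through the model group. In the fit to the 198 miRNAs detected on all arrays, 9 of 14 members were higher and 1 was lower, beside 17 and 27 of all 198. Over the 14 members detected on all arrays the median log2 fold change was 0.91, beside -0.15 over all 198 such miRNAs. Without the detection filter 4 members passed as higher, beside 6 of all 758. With normexp background correction 6 did, beside 15 of all 214, and the median over the 16 tested was 0.07 in place of 0.99. With slide row as a block 7 did, beside 11 of all 214.

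Within this list, 4 of the members detected on all arrays had a larger fold change than miR-21-5p. They were miR-31a-5p (log2 fold change 3.57), miR-199a-5p (1.95), miR-214-3p (1.84) and miR-199a-3p (1.40). With normexp, which adds an offset of 50 to every signal, these were 1.01, 1.07, 1.46 and 1.24, beside 0.998 for miR-21-5p. miR-31a-5p read 5.77, 12.8 and 4.04 for control 1 to 3 and 71.4, 138 and 84.5 for model 1 to 3, so that its groups lay far apart. miR-221-3p (1.07), miR-155-5p (1.07), miR-146b-5p (0.75) and miR-125b-5p (0.55) also rose. With normexp, miR-221-3p had 0.09 (adjusted p = 0.447) and miR-146b-5p 0.06 (adjusted p = 0.580). The call of miR-155-5p did not hold with normexp, without the detection filter, with slide row or replicate number as a block, or without control 1. Among fits that left out 1 array, that of miR-146b-5p did not hold without control 1, control 3 or model 2. That of miR-125b-5p did not hold without control 1, control 2, control 3 or model 3. Of 21 alternatives, miR-221-3p passed in 19, miR-155-5p in 15, miR-146b-5p in 14 and miR-125b-5p in 13. miR-155-5p, a miRNA of activated leukocytes, had a log2 fold change of -1.92 instead when the deposited totals, which hold signal of other miRNAs, were used.

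miR-222-3p, which has the seed of miR-221-3p, and miR-132-3p were detected on all 3 model arrays and on no control array. Their signals were low, 11.2, 14.6 and 9.51 for miR-222-3p and 4.12, 4.44 and 3.22 for miR-132-3p on model 1 to 3. Over 20 alternatives the log2 fold change of miR-222-3p ran from -0.005 to 6.81, and it passed in 19. That of miR-132-3p ran from -0.08 to 5.14, and it passed in 18. miR-503-5p was the member that was lower, and fell by 0.54 on the log2 scale (adjusted p = 0.0170 in limma), which did not hold without scaling or without control 1, control 2 or model 2. miR-212-3p, miR-146a-5p, miR-34a-5p and miR-223-3p did not pass, with log2 fold changes of -0.21, -0.42, 0.12 and 0.15. miR-208b-3p and miR-433-3p were detected on no array.

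The list of miRNAs known to restrain fibrosis held miR-29, miR-30, miR-133, miR-1, miR-101, miR-24 and miR-26 members. All 12 were tested, none passed as higher and 3 passed as lower in limma, beside 10.3% and 12.6% of all 214. The median log2 fold change was -0.27, beside -0.14 over all 214. By an unadjusted p under 0.05 in limma, 6 were lower, beside 51 of all 214, and 1 was higher, beside 30 of all 214. The latter was miR-24-3p (log2 fold change 0.19, adjusted p = 0.122 in limma). By the methods' t-test with the same adjustment none passed in either direction, beside 15 higher and 11 lower of all 214. Of the miR-29 family, which represses collagen messenger RNAs, miR-29a-3p, miR-29b-3p and miR-29c-3p had log2 fold changes of -0.13, -0.17 and -0.36 (adjusted p = 0.486, 0.257 and 0.102 in limma). The 3 that fell were the muscle miRNAs miR-1-3p, miR-133b-3p and miR-133a-3p, which dropped by 0.76, 0.72 and 0.68 on the log2 scale. No member of this list passed as lower without scaling, with slide row as a block, with the deposited totals or without control 1, control 2, control 3 or model 1, and with the deposited totals the median was 0.07. With quantile normalization the log2 fold changes of the 2 brightest, miR-1-3p and miR-133b-3p, were 0.

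Levels of some cell type miRNAs also differed between the groups, in either direction, and their part in the rise of miR-21-5p was not tested. The counts of calls in this and the next paragraph stand beside 10.3% higher and 12.6% lower of all 214. The 3 fibroblast miRNAs, miR-199a-5p, miR-199a-3p and miR-214-3p, which are also in the injury list, together made up 0.550% to 0.669% of the signal of a control array and 1.82% to 2.63% of that of a model array, and all rose. The 6 cardiomyocyte miRNAs, of which 5 were tested and 3 fell, made up 27.8% to 30.8% of a control array and 17.3% to 22.3% of a model array. The 3 that fell, miR-1-3p, miR-133b-3p and miR-133a-3p, are also the 3 that fell in the fibrosis-restraining list. None of these 3 calls held without scaling, by the methods' t-test, with slide row as a block, with the deposited totals or without control 1, control 2, control 3 or model 1, nor that of miR-1-3p without model 2, although the list's median was below 0 in every alternative. Both endothelial miRNAs fell, with a share of 2.05% to 2.20% on control and 1.69% to 1.74% on model arrays, but neither passed without scaling or without control 1, and miR-126a-3p did not without control 2.

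The leukocyte miRNAs made up 0.709% to 0.775% of the signal on control and 0.574% to 0.690% on model arrays. Of the 5 tested, miR-155-5p rose, miR-150-5p of lymphocytes fell by 0.60 (adjusted p = 0.0178 in limma) and 3 did not pass, and miR-142-5p was detected on no array. Without control 1 neither passed, and of the fits that left out 1 array miR-150-5p passed in that without model 3. The smooth muscle miRNAs miR-143-3p and miR-145-5p did not pass in limma, adjusted or not, and their median of -0.17 was above 0 without scaling (0.07). miR-145-3p was detected on no array. Of the red cell miRNAs, miR-486 fell by 0.68 (adjusted p = 0.0132 in limma), but not without scaling or without control 1, miR-451-5p did not pass (log2 fold change -0.53), and both arms of miR-144 were detected on no array.

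The fold change of miR-21-5p was recomputed under 23 alternatives of processing, samples or test. It was above 0 in all of them, between 0.93 and 1.44 on the log2 scale, and passed an adjusted p of 0.05 in 21. The lowest value was that without model 2, the array with the highest signal, and the highest was that from the deposited totals.

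**Figure D5:**
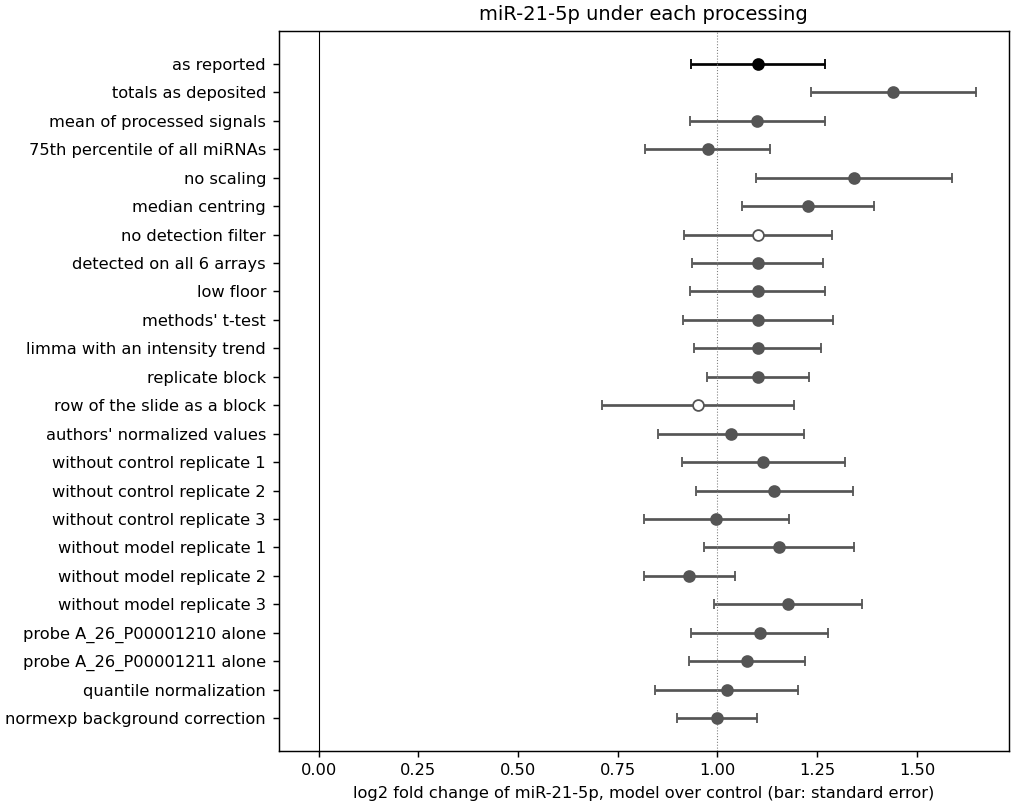
Log2 fold change of miR-21-5p, model over control, as reported and under each alternative (bar: standard error). Filled dots passed an adjusted p of 0.05 and open dots did not, which were the fit without a detection filter and the fit with slide row as a block; the dotted line marks a 2-fold change.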

How the data were processed

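Total RNA of the myocardium was hybridised to 6 single-colour Agilent Rat miRNA arrays, and samples were grouped by their labels. The authors deposited the spot output of Agilent Feature Extraction 10.7.1.1, as named in the submitters' processing notes, with background-subtracted intensity values that are not scaled between arrays. The authors also deposited normalized log2 values, whose method is not given in the sources used here. The labelling protocol in the labels describes Cy3 cRNA made with an amplification kit, which is not the usual labelling for this type of array, and its effect on the signals was not tested.

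For each miRNA, the intensities of distinct probes over 3 times their error were summed, because the deposited totals exceeded the own probes of 47 to 51 detected miRNAs per array. Each array was scaled to its 75th percentile over the 198 miRNAs that all 6 arrays detected, floored at -6.50 on the log2 scale and taken to log2. The floor is the lowest scaled detected signal of the array where that signal is highest, and the value of miR-21-3p on model 2 lay below it. limma 3.58.1 in R 4.3.3 (lmFit, eBayes) was fitted to the 214 miRNAs that all 3 arrays of either group detected, with Benjamini-Hochberg adjustment over all of them. Shares, ratios and probe values were compared by exact permutation tests, two-sided, with scipy 1.17.1 in Python 3.11.15. The fit was tested on simulated data. Precision is limited by 3 arrays per group and by the lowest detected signal of 1.16 to 1.60. The limma p-values set the difference between groups against the spread between arrays of 1 rat each. Spread between rats and spread between arrays cannot be told apart in them.

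miRNAs were named by rule: the arms of miR-21, those nearest in seed or in control signal, those it passed, the 5 most correlated with it by either measure, the ratio references and the members of the lists. The share gains, the miRNAs ahead of it in the model group and those with the longest shared stretches were added to it. The members, the lists and the rule were chosen with earlier results of these data known. Alternatives covered probe summary, background correction, scaling, filter, floor, test, blocks and leaving out each array.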

Additional observations from a re-analysis of the deposited data

How the results depend on the processing

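The direction of miR-21-5p, of its share and of its 8 ratios was the same under each alternative that gave a value, and for miR-21-3p, near the detection limit, none is read. miR-21-5p passed an adjusted p of 0.05 in limma in all alternatives except without a detection filter (log2 fold change 1.10) and in the fit with slide row as a block (0.95). Leaving out each array in turn gave log2 fold changes of 0.93 to 1.18 and adjusted p of 0.0184 to 0.0368. The methods' t-test gave an adjusted p of 0.0388.

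The number of miRNAs called, 49 as reported, was 19 without scaling, 9 without a detection filter, 26 by the methods' t-test, 29 in the fit with slide row as a block and 14 to 39 when each array was left out, with 14 without control 1, 26 without control 2 and 27 without control 3. The split of higher against lower calls, 22 and 27 as reported, was 19 and 47 when the 75th percentile was taken over all miRNAs, 24 and 20 with quantile normalization, 30 and 16 with median centring, 19 and 0 without scaling, 35 and 1 with the deposited totals and 23 and 14 with the authors' values. With the replicate number as a block, 16 were called and miR-21-5p had an adjusted p of 0.0217. The rats differ between groups. The deviations of same-numbered arrays correlated at -0.26, 0.03 and 0.24, and those of differently numbered arrays at -0.30 to 0.22. With deviations from a mean of 3 arrays, these values cannot decide whether the numbers pair the arrays.

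The 3 arrays per group leave the interval of the fold change wide, and signals of miR-21-3p near the detection limit cannot show a difference. Shares and ratios depend on the brightest miRNAs and on probe binding.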
